A study of Homo sapiens with 13 samples.

Results

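The 9 genes described here encode the enzymes that make serine from a glycolytic intermediate (PHGDH, PSAT1, PSPH) and pass its carbon through folate in mitochondria (SHMT2, MTHFD2, MTHFD1L, ALDH1L2) and in the cytosol (SHMT1, MTHFD1). They were taken by symbol from a table of 60591 genes, and all 9 were present and passed the filter on low counts that left 19514 genes. RNA came from TE11, a human line labelled as esophageal squamous cell carcinoma, after 48 h with 10 µM chloroquine plus 25 µM 5-fluorouracil (combination, n = 3), 25 µM 5-fluorouracil (5-FU, n = 3), 10 µM chloroquine (n = 3) or 0.1% DMSO (vehicle, n = 4). The labels give DMSO for vehicle only, so whether the drug cultures held it is not known. Chloroquine is a weak base that collects in lysosomes, and 5-FU is a pyrimidine analogue whose product blocks thymidylate synthase. The study asked about chloroquine as a sensitiser to 5-FU in these cells.

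PHGDH oxidises 3-phosphoglycerate, PSAT1 transfers an amino group to the product and PSPH removes the phosphate to leave serine. SHMT enzymes then split serine into glycine and a carbon unit held on folate, in the form that thymidylate synthase also uses. In many proliferating cells the mitochondrial enzymes oxidise that unit to formate, which leaves for the cytosol and is put back on folate by MTHFD1 for purine and thymidylate synthesis. Several of these genes are known targets of ATF4, a transcription factor of the amino acid and integrated stress response, and some also of MYC.

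Total counts per library ran from 17834539 to 23679833, and the labels number the replicates without saying whether each was its own culture. Each p-value therefore reflects scatter among libraries that may be technical. Defining markers of squamous epithelium were near 0. Of 18 epithelial markers, 11 had at most 10 counts in each of 8 libraries, KRT5 and IVL had 0, and TP63 had at most 1, while SOX2, DSC3, PERP and KRT18 had at least 100 in each. Summed counts of the epithelial list, not scaled for depth, were 12079 to 13083 in the combination, 7035 to 9102 with 5-FU, 7110 to 8706 with chloroquine and 5711 to 6617 in vehicle. PERP (2413 to 6890 counts in the 8 libraries) and DSC3 (2063 to 4113) weigh most in these sums, which therefore do not measure epithelial content at large. The other 5 libraries (combination 2, 5-FU 2, chloroquine 1 and 2, vehicle 4) held COL1A2, which encodes a fibroblast collagen, at 153 to 741 counts, where the 8 had 1 to 7. Summed fibroblast markers were 676 to 2493 counts in those 5 libraries against 203 to 617 in the 8, erythroid ones 48 to 296 against 13 to 77, leukocyte ones 10 to 156 against 1 to 18, endothelial ones 8 to 20 against 2 to 12, and pancreatic and salivary ones 7 to 530 against 4 to 11. The part of this material in the results was not tested beyond the fits within each kind of library given below. Those leave 4 residual degrees of freedom for the 8 libraries and 1 for the 5. Chloroquine had 1 library among the 8, and the combination, 5-FU and vehicle had 1 each among the 5. Such a library is assumed to vary like the others.

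5-FU lowered every one of the 9 transcripts, with the deepest falls in ALDH1L2, SHMT2, MTHFD1L, PHGDH and PSAT1 and the shallowest in SHMT1 and PSPH. Chloroquine alone left most of them within a small range and raised ALDH1L2. Together the 9 genes took 0.105 ± 0.0021% of counts in the combination, 0.1005 ± 0.0044% with 5-FU, 0.211 ± 0.0036% with chloroquine and 0.197 ± 0.0040% in vehicle (SD). The 6 libraries with 5-FU lay between 0.0958% and 0.106% and the 7 libraries without it between 0.192% and 0.215%. In RNA from whole cultures, fewer cells of a kind and less RNA per cell cannot be told apart. Values below are CPM, counts scaled by TMM library size, so each is relative to the rest of a library's RNA. Calls come from edgeR's quasi-likelihood test at 0.05 after Benjamini-Hochberg adjustment across all tested genes, and values after ± are the SD of CPM or the SE of a log2 fold change.

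With 5-FU against vehicle, 9 of 9 members were lower, where 29.5% of all tested genes were called lower and 30.8% higher. The members' median log2 fold change was -1.41, beside 0.010 over all genes tested. In the combination against vehicle 8 of 9 were lower (27.2% of all genes lower, 28.1% higher), with a median of -1.19, beside 0.0057 over all genes. In the combination against chloroquine 9 of 9 were lower (25.7% lower, 24.8% higher), with a median of -0.996, beside -0.013 over all genes; SHMT1 missed the threshold there within the 8 libraries (-0.15). These comparisons share libraries, so they are no separate lines of support for each other.

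**Figure D1:**
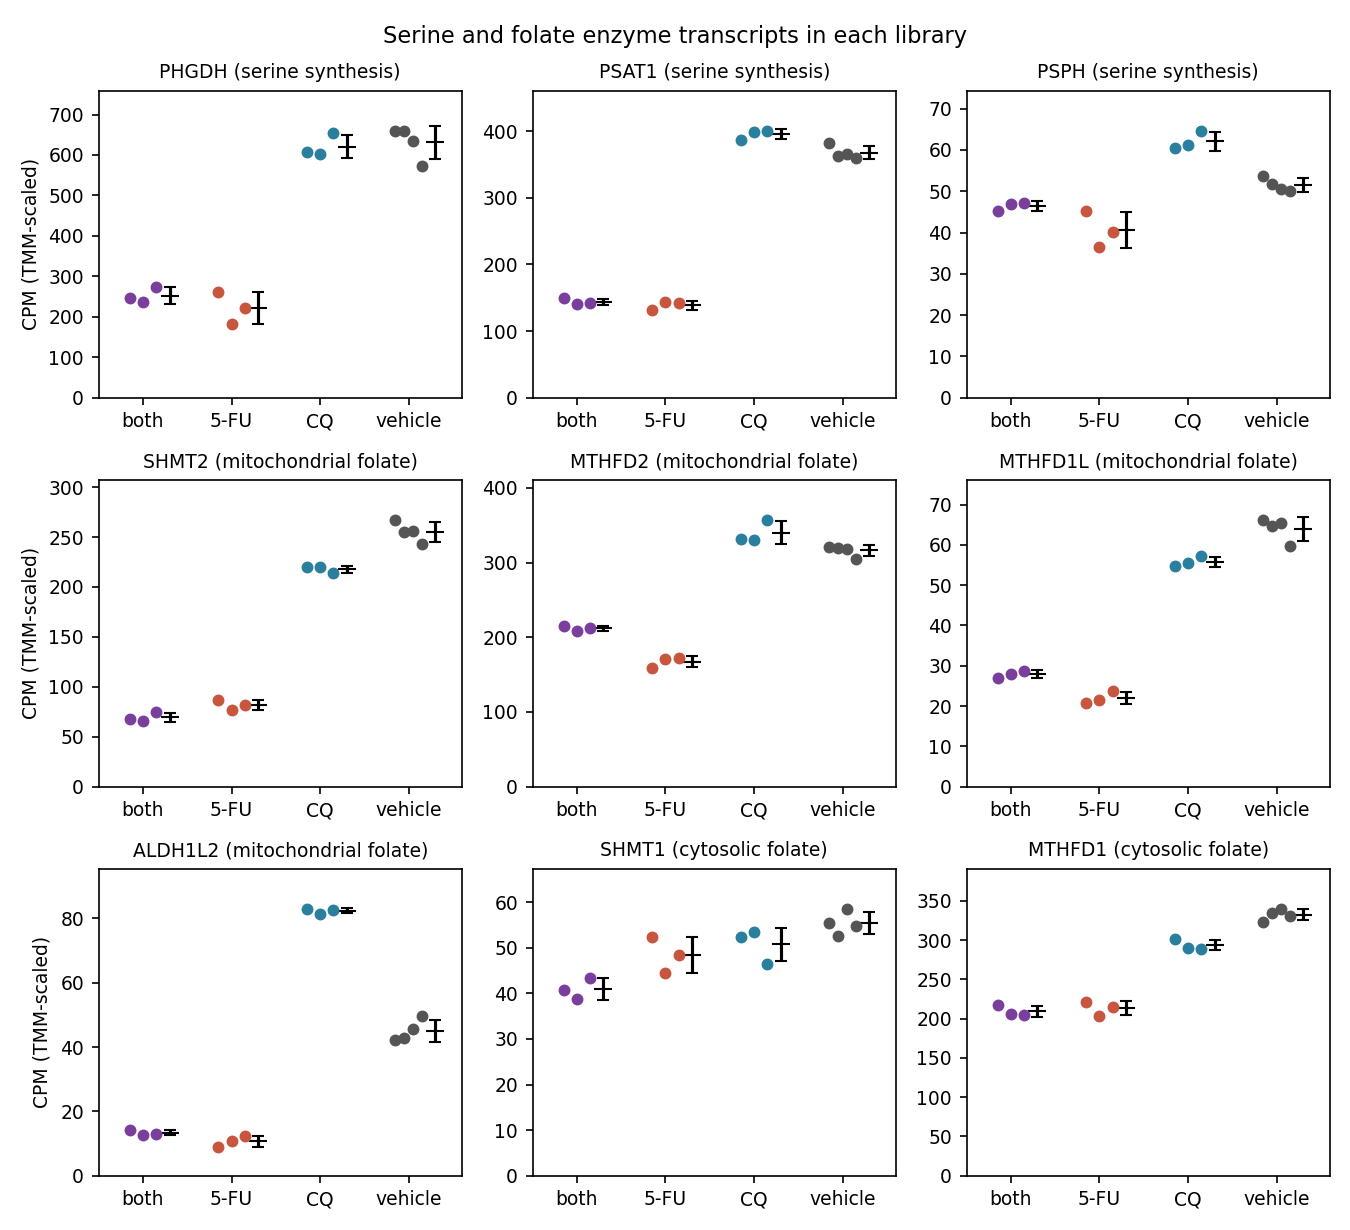
CPM (TMM-scaled, vertical axes from 0) of each enzyme in the 13 libraries; points are libraries, the dash with bars beside them is the mean ± SD, "both" is the combination and CQ is chloroquine. In 8 of the 9 panels every library with 5-FU lies below every library without it. SHMT1 is the exception, where 5-FU 1 (52.3 CPM) lies above chloroquine 3 (46.5 CPM). The share of all tested genes that separate in this way was not counted, so the panels do not show whether this is unusual.

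Among the serine synthesis genes, PHGDH had 247.0, 235.5 and 274.8 CPM in the combination, 262.4, 183.3 and 220.9 CPM with 5-FU, 606.3, 602.0 and 654.3 CPM with chloroquine and 660.4, 659.3, 634.4 and 572.6 CPM in vehicle. The libraries fell into a low set with 5-FU and a high set without it, and no low library came near the high set. PHGDH fell with 5-FU (log2 -1.51 ± 0.099, edgeR adjusted p = 1.41e-08) and in the combination (log2 -1.32 ± 0.098, edgeR adjusted p = 5.90e-08). With chloroquine alone it was at -0.025 ± 0.094 against vehicle (edgeR adjusted p = 0.862), and the groups overlapped. In all 4 groups the lowest PHGDH value was in a library that held COL1A2 (combination 2, 5-FU 2, chloroquine 2 and vehicle 4). Such libraries were 2 of 3 in chloroquine and 1 of 4 in vehicle. With a term for them, the chloroquine value against vehicle was 0.064 (edgeR adjusted p = 0.446). With all 13 libraries the combination did not pass the test against 5-FU (log2 0.18 ± 0.10, edgeR adjusted p = 0.176). It passed with a term for the COL1A2 libraries (log2 0.19, edgeR adjusted p = 0.0239) and without 5-FU 1 (log2 0.32, edgeR adjusted p = 0.0120). Within the 5 libraries that held COL1A2 the difference was 0.36 on the log2 scale, between combination 2 and 5-FU 2 alone.

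PSAT1, the aminotransferase step, had 149.2, 140.0 and 141.4 CPM in the combination, 130.9, 143.5 and 142.3 CPM with 5-FU, 386.9, 398.5 and 401.0 CPM with chloroquine and 382.7, 363.4, 366.0 and 360.0 CPM in vehicle. It fell with 5-FU (log2 -1.41 ± 0.047, edgeR adjusted p = 2.50e-11) and in the combination against vehicle (log2 -1.36 ± 0.047, edgeR adjusted p = 3.79e-11). The combination and 5-FU libraries overlapped and differed by 0.047 ± 0.049 (edgeR adjusted p = 0.489). With chloroquine alone all 3 libraries were above all 4 of vehicle, but by only 0.10 ± 0.044 on the log2 scale (edgeR adjusted p = 0.0788). That difference passed in fits of the 2 groups alone (0.11), with scaling by library size alone (0.20) and under a minimum of 10 CPM (0.16). Within the 5 libraries with COL1A2, where vehicle had 1 library, it was 0.12.

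The DNA before the PSAT1 start is shown because PSAT1 fell about as far as PHGDH with less spread between libraries, and because its 250 bases before the RefSeq start hold no exon annotated in GENCODE 29. The sequences here are from RefSeq promoters of build GRCh38.p14, matched by symbol, which was possible for PHGDH, PSAT1, MTHFD2, MTHFD1L, SHMT1 and MTHFD1, and they are not part of the count table. They were searched on both strands, 250 bases before to 50 after each start, for TGATGNAA, the core of the element that ATF4 binds with C/EBP partners, and for CACGTG, the E-box that MYC binds; the 2 motifs do not overlap in these windows. TGATGNAA was in 3.62% of 35116 promoters and in 2.01% of the 17126 of tested genes, and CACGTG in 7.26% and 9.17%. Neither string of letters occurs in the PSAT1 window, here on the plus strand at chr9:78296875-78297124.
PSAT1: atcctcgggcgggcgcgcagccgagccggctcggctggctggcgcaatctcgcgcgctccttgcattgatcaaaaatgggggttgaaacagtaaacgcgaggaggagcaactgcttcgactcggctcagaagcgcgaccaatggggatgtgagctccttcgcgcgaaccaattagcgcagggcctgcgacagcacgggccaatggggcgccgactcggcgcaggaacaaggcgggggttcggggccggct

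PSPH, the phosphatase that completes serine, moved over a much smaller range. It had 45.1, 46.8 and 47.3 CPM in the combination, 45.2, 36.5 and 40.1 CPM with 5-FU, 60.4, 61.3 and 64.7 CPM with chloroquine and 53.7, 51.7, 50.6 and 50.01 CPM in vehicle. The chloroquine libraries were the highest and stood clear of vehicle, and the 5-FU libraries were the lowest with one overlapping the combination. PSPH rose with chloroquine (log2 0.27 ± 0.064, edgeR adjusted p = 0.00394) and fell with 5-FU (log2 -0.34 ± 0.065, edgeR adjusted p = 0.000371). In the combination it was at -0.15 ± 0.065 against vehicle, which missed the threshold (edgeR adjusted p = 0.0624) although the groups did not overlap. It was called lower there with RLE scaling, with DESeq2, with a term for the COL1A2 libraries, with the 2 groups alone and without 5-FU 1 or 5-FU 2 (-0.16 to -0.14).

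In the mitochondrial arm, SHMT2, which moves a carbon unit from serine to folate, had 67.9, 65.9 and 74.8 CPM in the combination and 86.4, 76.8 and 82.1 CPM with 5-FU. Chloroquine libraries had 220.2, 219.5 and 213.7 CPM and vehicle libraries 267.5, 254.9, 255.7 and 242.7 CPM. The 4 groups did not overlap and stood in this order from low to high. SHMT2 fell in every comparison with vehicle, by 1.88 ± 0.059 in the combination, 1.64 ± 0.058 with 5-FU and 0.23 ± 0.055 with chloroquine on the log2 scale (edgeR adjusted p = 2.29e-11, 3.80e-11 and 0.00431). It was also lower in the combination than with 5-FU (log2 -0.23 ± 0.061, edgeR adjusted p = 0.00726).

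MTHFD2, the mitochondrial dehydrogenase and cyclohydrolase, had 215.1, 208.8 and 212.6 CPM in the combination, 158.8, 171.3 and 171.7 CPM with 5-FU, 331.7, 331.0 and 357.7 CPM with chloroquine and 321.6, 320.1, 318.6 and 305.3 CPM in vehicle. The combination lay between 5-FU and vehicle without overlap. MTHFD2 fell with 5-FU (log2 -0.92 ± 0.046, edgeR adjusted p = 1.03e-09) and less deeply in the combination against vehicle (log2 -0.58 ± 0.045, edgeR adjusted p = 1.02e-07), and it was higher in the combination than with 5-FU (log2 0.34 ± 0.048, edgeR adjusted p = 7.99e-05). With chloroquine alone it was at 0.10 ± 0.044 (edgeR adjusted p = 0.0779). It passed with scaling by library size (0.20), a 10 CPM minimum (0.16), the 2 groups alone (0.11) and a term for the COL1A2 libraries (0.12). Within the 5 libraries that held COL1A2, where vehicle had 1 library, the value was 0.11.

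MTHFD1L, the ligase that releases formate from folate, had 27.0, 28.0 and 28.8 CPM in the combination and 20.7, 21.5 and 23.6 CPM with 5-FU. Chloroquine libraries had 54.7, 55.4 and 57.2 CPM and vehicle libraries 66.3, 64.6, 65.5 and 59.6 CPM. All 4 groups were apart from each other. MTHFD1L fell with 5-FU (log2 -1.54 ± 0.060, edgeR adjusted p = 1.08e-10) and in the combination (log2 -1.19 ± 0.059, edgeR adjusted p = 1.14e-09), and was higher in the combination than with 5-FU (log2 0.35 ± 0.065, edgeR adjusted p = 0.000779). Its small fall with chloroquine alone (log2 -0.20 ± 0.056, edgeR adjusted p = 0.0117) missed the threshold within the 8 libraries (-0.19), within the 5 (-0.12), with library size only (-0.10) and without chloroquine 1 (-0.19).

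ALDH1L2, which oxidises formyl-folate to carbon dioxide with formation of NADPH in mitochondria, moved furthest in both directions. It had 14.3, 12.7 and 13.1 CPM in the combination, 8.86, 10.9 and 12.2 CPM with 5-FU, 83.1, 81.4 and 82.7 CPM with chloroquine and 42.2, 42.9, 45.7 and 49.6 CPM in vehicle. The 3 chloroquine libraries were tightly grouped far above vehicle, and the 6 libraries with 5-FU far below it. Chloroquine alone raised it 1.83-fold (log2 0.87 ± 0.078, edgeR adjusted p = 1.86e-06), a rise called in all 23 alternative fits (0.73 to 0.96). It fell with 5-FU (log2 -2.08 ± 0.093, edgeR adjusted p = 3.83e-10) and in the combination against vehicle (log2 -1.75 ± 0.090, edgeR adjusted p = 1.71e-09). Its higher level in the combination than with 5-FU (log2 0.32 ± 0.10, edgeR adjusted p = 0.0246) missed the threshold without 5-FU 1 (0.21), without combination 1 (0.26), with library size only (0.28), within the 5 libraries (0.22) and with the 2 groups alone (0.31).

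In the cytosolic arm, SHMT1 was the enzyme that moved least. It had 40.7, 38.8 and 43.4 CPM in the combination, 52.3, 44.4 and 48.4 CPM with 5-FU, 52.3, 53.4 and 46.5 CPM with chloroquine and 55.5, 52.7, 58.6 and 54.9 CPM in vehicle. Combination libraries were the lowest, and the 5-FU and chloroquine libraries overlapped. Its fall with 5-FU was small (log2 -0.20 ± 0.069, edgeR adjusted p = 0.0236) and missed the threshold with scaling by library size (-0.0049), a 10 CPM minimum (-0.096), within the 8 libraries (-0.14) and without vehicle 3 (-0.17), 5-FU 2 (-0.14) or 5-FU 3 (-0.20). The fall in the combination against vehicle was larger (log2 -0.44 ± 0.070, edgeR adjusted p = 1.001e-04) and was called in all 23 alternative fits. The combination was also below 5-FU (log2 -0.24 ± 0.074, edgeR adjusted p = 0.0194), a call lost with the 2 groups alone (-0.26) and without 5-FU 1 (-0.18), combination 1 (-0.24) or combination 2 (-0.20).

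MTHFD1, the cytosolic enzyme of 3 activities that rebuilds folate carbon units from formate, had 217.1, 205.3 and 204.6 CPM in the combination, 220.9, 203.6 and 214.8 CPM with 5-FU, 300.7, 290.3 and 289.2 CPM with chloroquine and 323.2, 334.8, 340.0 and 330.9 CPM in vehicle. The combination and 5-FU overlapped (log2 -0.028 ± 0.046, edgeR adjusted p = 0.679), and chloroquine lay below vehicle without overlap. It fell with 5-FU (log2 -0.64 ± 0.043, edgeR adjusted p = 1.89e-08) and in the combination (log2 -0.67 ± 0.043, edgeR adjusted p = 1.57e-08), and slightly with chloroquine (log2 -0.18 ± 0.043, edgeR adjusted p = 0.00415). The slight fall missed the threshold with library size only (-0.084), within the 8 libraries (-0.20) and without a filter on low counts (-0.18).

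MTHFD1L and MTHFD1 were the members whose promoter windows held a searched motif, shown here as 30 bases each on the plus strand of GRCh38.p14 with the motif in capitals. The MTHFD1L sites lie at chr6:150866320-150866349 (E-box) and chr6:150866346-150866375 (TGATGNAA), and the MTHFD1 site at chr14:64388326-64388355. MTHFD1L had several RefSeq starts, unlike the other members searched, so more of its sequence was searched. Its window at chr6:151006758-151007057 held neither motif, and the shares of promoters given above are per promoter, not per gene. The motif letters are a description of the DNA and say nothing of binding in TE11.
MTHFD1L, E-box: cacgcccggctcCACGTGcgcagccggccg
MTHFD1L, TGATGNAA: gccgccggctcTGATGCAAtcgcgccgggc
MTHFD1, E-box: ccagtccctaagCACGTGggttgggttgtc
With 5-FU the log2 fold change was -1.54 for MTHFD1L, which holds both motifs, and -0.64 for MTHFD1, which holds an E-box. It was between -1.51 and -0.20 for the 4 members with neither in their windows, at -1.51 for PHGDH, -1.41 for PSAT1, -0.92 for MTHFD2 and -0.20 for SHMT1.

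**Figure D2:**
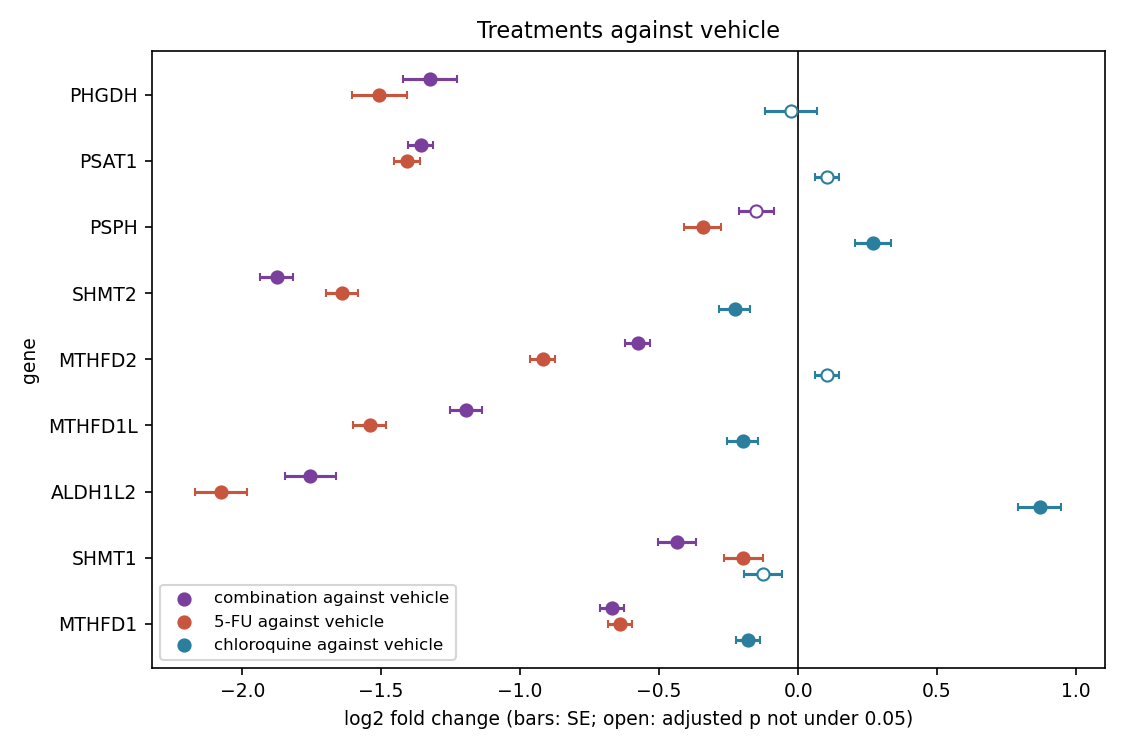
Log2 fold changes of the 9 enzymes against vehicle (horizontal axis) with SE bars, for the combination, 5-FU and chloroquine; open points did not pass the test. ALDH1L2 spans the widest range, from -2.08 with 5-FU to 0.87 with chloroquine, while SHMT1 stays between -0.44 and -0.13.

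Chloroquine alone gave 2 members higher (ALDH1L2, PSPH) and 3 lower (SHMT2, MTHFD1L, MTHFD1) against vehicle, where 20.3% of all tested genes were higher and 19.1% lower. The members' median of -0.025 stood beside 0.023 over all genes. Scaling by library size alone shifted the all-gene median to 0.12 in this comparison, to 0.20 with 5-FU and to 0.15 in the combination, and 4 members were higher with chloroquine (ALDH1L2, PSPH, PSAT1 and MTHFD2) and 1 lower (SHMT2). PSAT1 and MTHFD2 were thus called with that scaling and not with TMM, MTHFD1 (-0.084) and MTHFD1L (-0.10) with TMM and not with that scaling, and ALDH1L2, PSPH and SHMT2 with either.

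Chloroquine on top of 5-FU gave 4 members higher (MTHFD1L, MTHFD2, ALDH1L2, PSPH) and 2 lower (SHMT1, SHMT2) than 5-FU alone, where 20.2% of all tested genes were higher and 18.3% lower. The members' median was 0.18, beside 0.025 over all genes. With the replicate number as a block in these 2 groups, 2 were higher (MTHFD2, MTHFD1L) and 2 lower, since ALDH1L2 (0.32, edgeR adjusted p = 0.0642) and PSPH (0.18, edgeR adjusted p = 0.174) missed the threshold. PSPH, at 0.19 ± 0.069 (edgeR adjusted p = 0.0388), had overlapping libraries and was also lost within the 8 libraries (0.12) and without any one of the 3 combination libraries (0.18 to 0.21), 5-FU 2 (0.12), 5-FU 3 (0.18), vehicle 2 or 3, or chloroquine 1 or 2 (0.19 each). Without combination 1 the count was 3 members, and with the 2 groups alone it was 3.

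The interaction asks whether the effect of chloroquine differed with and without 5-FU. It was called higher for 2 members (MTHFD1L, MTHFD2) and lower for 1 (ALDH1L2), where 20.6% of all tested genes were higher and 19.3% lower. For MTHFD1L the chloroquine effect was 0.35 with 5-FU and -0.20 without it, an interaction of 0.55 ± 0.086 (edgeR adjusted p = 0.000201). For ALDH1L2 the effect was 0.32 with 5-FU and 0.87 without it, an interaction of -0.55 ± 0.13 (edgeR adjusted p = 0.00415). Both were called in all 22 alternative fits, at 0.41 to 0.62 for MTHFD1L and -0.69 to -0.42 for ALDH1L2. For MTHFD2 the effect was 0.34 with 5-FU and 0.10 without it, an interaction of 0.24 ± 0.066 (edgeR adjusted p = 0.00983) that missed the threshold with scaling by library size (0.099), a 10 CPM minimum (0.15), no filter (0.26) and within the 8 libraries (0.21). The SHMT2 interaction was -0.0055 ± 0.081 (edgeR adjusted p = 0.968). That of MTHFD1, at 0.15 ± 0.063 (edgeR adjusted p = 0.0684), was called higher with RLE scaling (0.16) and with DESeq2 (0.16). That of PSAT1, at -0.057 ± 0.066 (edgeR adjusted p = 0.539), was called lower with library size only (-0.20). Without 5-FU 1, PHGDH (0.36) and MTHFD1 (0.19) were called in addition. Within the 5 libraries with COL1A2, where 1 residual degree of freedom was left, the interaction was 0.28 for PHGDH, 0.18 for MTHFD1 and -0.16 for PSAT1.

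**Figure D3:**
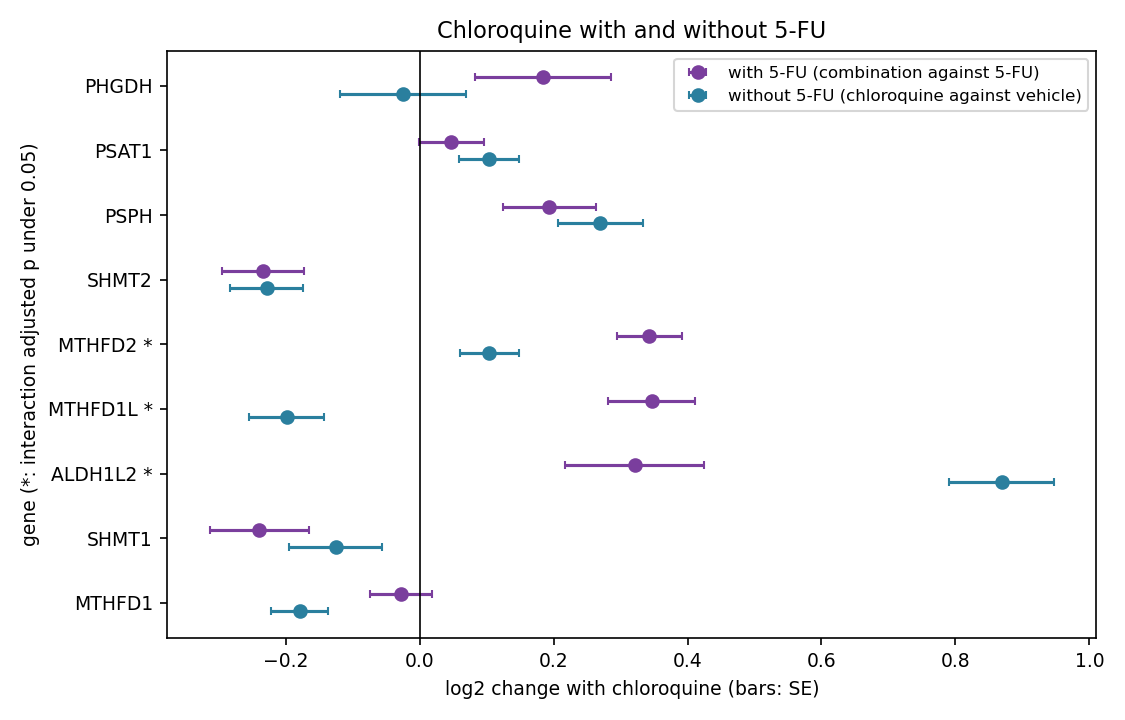
Log2 change with chloroquine in each enzyme (horizontal axis, SE bars), with 5-FU present (combination against 5-FU) and absent (chloroquine against vehicle); stars mark interactions with an adjusted p under 0.05. MTHFD1L changes side between the settings (0.35 and -0.20), ALDH1L2 is higher in both (0.32 and 0.87), and SHMT2 is lower in both by 0.23.

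Ratios of 2 transcripts inside a library do not depend on the scaling between libraries, and were added after the values had been seen, with no test. The SHMT2 to SHMT1 ratio of counts was 1.67, 1.70 and 1.72 in the combination, 1.65, 1.73 and 1.70 with 5-FU, 4.21, 4.11 and 4.595 with chloroquine and 4.82, 4.84, 4.36 and 4.42 in vehicle. Libraries with 5-FU lay in a narrow band far below the others, within which the combination and 5-FU overlapped, as did chloroquine and vehicle. The MTHFD2 to MTHFD1 ratio was 1.02 ± 0.024 in the combination, 0.786 ± 0.062 with 5-FU, 1.16 ± 0.069 with chloroquine and 0.953 ± 0.031 in vehicle (SD). Here 5-FU lay below vehicle and chloroquine above it without overlap, and the combination (0.991 to 1.04) overlapped vehicle (0.923 to 0.995). The ALDH1L2 to MTHFD1L ratio was 0.479 ± 0.045 in the combination, 0.484 ± 0.049 with 5-FU, 1.48 ± 0.037 with chloroquine and 0.708 ± 0.087 in vehicle. Within serine synthesis, PHGDH per PSPH was 5.44 ± 0.39 in the combination, 5.45 ± 0.40 with 5-FU, 9.99 ± 0.15 with chloroquine and 12.3 ± 0.57 in vehicle.

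**Figure D4:**
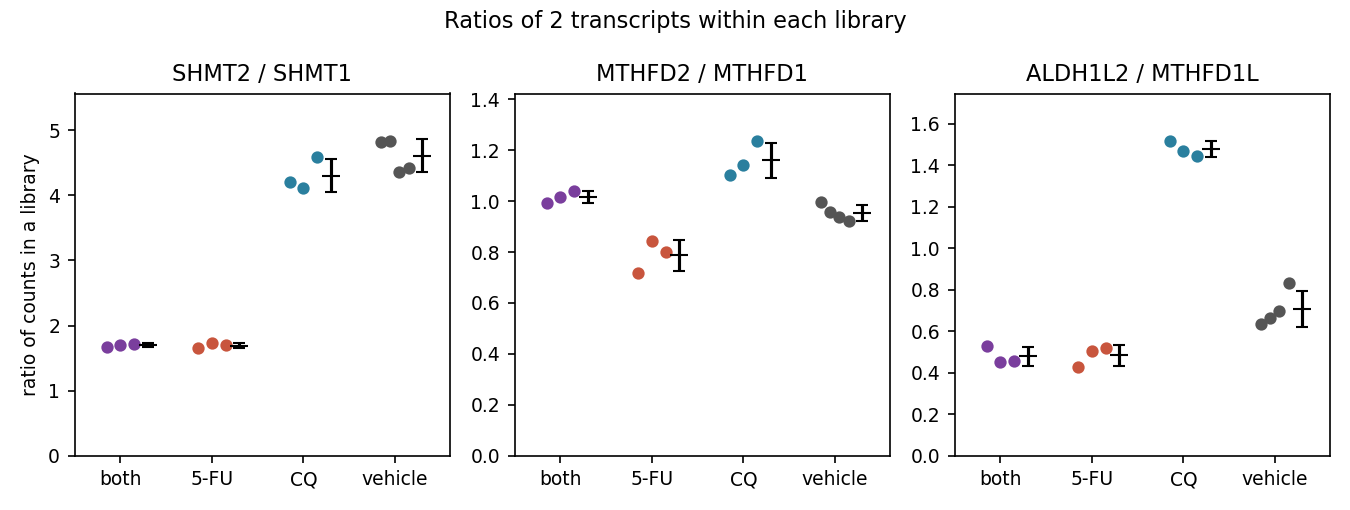
Ratios of counts of 2 enzymes within each library (vertical axes from 0, points are libraries, dash with bars is mean ± SD, "both" is the combination and CQ is chloroquine). SHMT2 to SHMT1 lies between 1.65 and 1.73 in the 6 libraries with 5-FU and between 4.11 and 4.84 in the 7 without it.

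Levels between genes were compared per kilobase of the principal GENCODE 29 transcript, an assumption about which transcript was counted. In the combination the order in CPM per kilobase was PHGDH (97.6), MTHFD1 (66.6), PSAT1 (65.6), MTHFD2 (47.6), SHMT2 (27.4), PSPH (21.3), SHMT1 (16.6), MTHFD1L (7.76) and ALDH1L2 (1.77). In vehicle it was PHGDH (244.4), PSAT1 (168.2), MTHFD1 (105.9), SHMT2 (100.6), MTHFD2 (71.0), PSPH (23.6), SHMT1 (22.5), MTHFD1L (17.8) and ALDH1L2 (5.98). The libraries of MTHFD1 and PSAT1 overlapped in the combination, and those of MTHFD1 and SHMT2 and of PSPH and SHMT1 overlapped in vehicle. SHMT2 was thus above MTHFD2 per kilobase in vehicle and below it in the combination. Pseudogenes named after 5 members (PSAT1, PSPH, MTHFD2, SHMT1, MTHFD1) had at most 237 counts, and no source used here says how reads shared with them were assigned.

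The neighbouring pathways were read from lists chosen with earlier results of these data known, so their counts are a description, to be read against the 29.5% of all tested genes that were lower and the 30.8% that were higher with 5-FU. With 5-FU, 9 of 9 purine synthesis genes were lower (median -0.62; PFAS -0.69 ± 0.085), as were 7 of 7 methionine cycle and transsulfuration genes (median -0.71) and 3 of 3 glycine cleavage genes (median -0.74; the decarboxylase GLDC -0.74 ± 0.062). Of 15 other folate enzymes and carriers, 10 were lower and 4 higher (median -0.42). The methionine synthase MTR, which joins folate to the methionine cycle, fell by 1.12 ± 0.046 on the log2 scale, MTHFD2L, the other mitochondrial dehydrogenase, was at -0.44 ± 0.087, and the mitochondrial folate carrier SLC25A32 at -0.56 ± 0.16, with 1.91 to 3.15 CPM with 5-FU and 3.31 to 4.18 CPM in vehicle. The SLC25A32 fall missed the threshold without 5-FU 3 (-0.39), with scaling by library size (-0.37) and within the 5 libraries (-0.48), and that of MTHFD2L within the 5 libraries (-0.094). TYMS, the thymidylate synthase, rose by 0.28 ± 0.051 on the log2 scale. Of 11 serine and glycine carriers and serine-using enzymes, 7 were lower and 1 higher (median -0.40; the glycine carrier SLC6A9 -1.47 ± 0.099).

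With chloroquine alone, 20.3% of all tested genes were higher and 19.1% lower. Of the counts that follow, those lower among the carriers, lower in the folate list and higher in the methionine list lay nearest those shares. Purine synthesis had 8 of 9 lower (median -0.31), glycine cleavage 3 of 3 lower (median -0.56), the methionine list 4 lower and 1 higher of 7 (median -0.14; CTH, the last transsulfuration enzyme, rose by 0.70 ± 0.061), the folate list 4 lower and 1 higher of 15 (median -0.13), and the carriers 5 higher and 2 lower of 11 (median 0.19). SLC6A9 rose by 1.07 ± 0.084 and the serine carrier SLC1A4 by 0.64 ± 0.053. In the combination against vehicle, where 27.2% of all tested genes were lower and 28.1% higher, the counts were 9 of 9 lower for purine synthesis, 3 of 3 for glycine cleavage, 6 of 7 for the methionine list, 9 lower and 3 higher of 15 for the folate list, and 6 lower and 4 higher of 11 for the carriers. In the interaction, 7 of 9 purine genes were higher and 2 lower, beside 20.6% and 19.3% of all tested genes. ALDH1L1, the cytosolic counterpart of ALDH1L2, did not pass the filter on low counts.

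ATF4 itself had 473.6, 458.7 and 505.8 CPM in the combination, 428.2, 411.4 and 426.2 CPM with 5-FU, 845.4, 869.9 and 907.4 CPM with chloroquine and 792.0, 788.7, 755.8 and 752.0 CPM in vehicle. It fell with 5-FU (log2 -0.87 ± 0.043) and in the combination (log2 -0.69 ± 0.043), and rose with chloroquine (log2 0.18 ± 0.042, edgeR adjusted p = 0.00376), a rise that missed the threshold when no low-count filter was applied (0.18). Of the 24 genes in the list of ATF4 and its other targets, 14 were lower and 7 higher with 5-FU (median -0.33), 15 higher and 3 lower with chloroquine (median 0.33), and 12 lower and 8 higher in the combination (median -0.19). Over all tested genes, 29.5% were lower and 30.8% higher with 5-FU, and 20.3% higher and 19.1% lower with chloroquine. In the combination 27.2% were lower and 28.1% higher. The 7 higher with 5-FU and the 8 higher in the combination lay near those shares. In the interaction 12 were lower and 2 higher, beside 19.3% and 20.6% of all tested genes. With 5-FU the cystine carrier SLC7A11 fell by 2.48 ± 0.084 while DDIT3, the stress factor CHOP, rose by 2.68 ± 0.090, and with chloroquine CHAC1, a glutathione-degrading enzyme, rose by 1.70 ± 0.13.

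MYC had 15.3, 18.2 and 16.7 CPM in the combination, 16.0, 14.0 and 12.96 CPM with 5-FU, 77.0, 73.9 and 70.0 CPM with chloroquine and 75.3, 76.5, 75.5 and 77.7 CPM in vehicle. It fell with 5-FU (log2 -2.42 ± 0.076) and in the combination (log2 -2.19 ± 0.075), and was at -0.050 ± 0.066 with chloroquine (edgeR adjusted p = 0.593). Of 6 tested genes in the list of MYC and partners, 3 were lower and 1 higher with 5-FU, 3 lower and 2 higher in the combination, and 2 lower and 2 higher with chloroquine. With so few genes, and with 29.5% of all tested genes lower and 30.8% higher with 5-FU, 27.2% and 28.1% in the combination and 19.1% and 20.3% with chloroquine, these counts say little about the list. Of 5 genes in the p53 list, 4 were higher with 5-FU, 4 higher and 1 lower in the combination, and 1 higher with chloroquine; the higher ones included CDKN1A (2.19 ± 0.068 with 5-FU). Whether ATF4, MYC or p53 had a part in the members' levels was not tested.

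**Figure D5:**
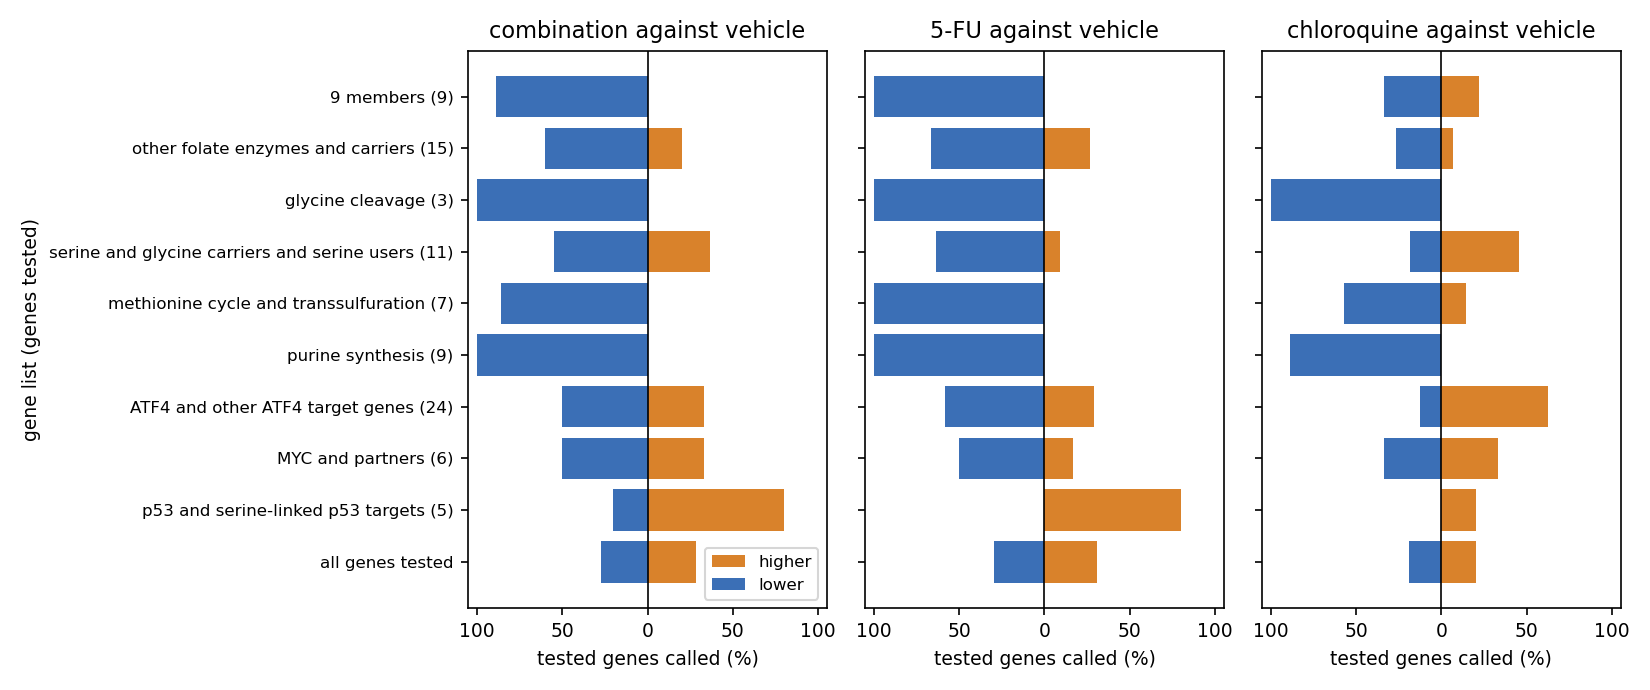
Share of tested genes called lower (blue, left) and higher (orange, right) in each gene list, in percent on the horizontal axis, for the combination, 5-FU and chloroquine against vehicle; list sizes are in parentheses. All 9 members and all 9 purine genes are lower with 5-FU, against 29.5% of all genes tested.

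By Pearson correlation of log2 CPM over the 13 libraries, given as a description since all genes share the libraries and their treatments, the genes most like PHGDH were SND1 (r = 0.995), MARS1 (0.993) and WSCD1 (0.993). Those most like SHMT2 were MAGED1 (0.998), SLC7A5 (0.997) and the pseudogene HNRNPA1P48 (0.994), whose reads cannot be split with certainty from its parent gene. Those most like MTHFD2 were EIF4B (0.998), BCAT1 (0.997) and SLC16A1 (0.994). Among the members themselves r was highest between SHMT2 and MTHFD1 (0.983) and lowest between SHMT1 and PSPH (0.386).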

How the data were processed

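Directional libraries were made from total RNA of 13 samples, per the labels' protocols. What the authors deposited is 1 table of whole-number counts per gene and library, under human symbols. The submitters' processing notes name DESeq and the mouse build GRCm38, with no role; no source used here names the aligner, counter, annotation or strand setting, so counts cannot be tied to one build and overlapping antisense genes cannot be told apart. Each column matched 1 library by its label.

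The filterByExpr step of edgeR 4.0.16 (R 4.3.3) left 19514 genes and at least 99.8% of each library's counts. TMM scaling and 1 quasi-likelihood model with a mean per group over all 13 libraries gave 6 contrasts, with Benjamini-Hochberg adjustment over all tested genes. The members and lists were chosen with earlier results of these data known. Named genes were all members, up to 2 called genes with the largest rise and fall per list and comparison (the text gives those that describe a list), ATF4, MYC, TYMS, MTHFD2L, ALDH1L1 and SLC25A32, and the 3 genes most correlated with PHGDH, SHMT2 and MTHFD2 among genes whose log2 CPM averaged 1 or more (prior count 2); 1 further gene that this rule names is not reported here.

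Alternatives were RLE or library-size scaling, DESeq2 1.42.0, other filters, only the groups compared, each library left out, a term for libraries with at least 50 COL1A2 counts or fits within each kind, and a replicate block. Residuals of same-numbered libraries correlated in all 3 pairs of the combination and 5-FU (0.341, 0.743 and 0.339). In no other pair of groups did all 3 exceed 0.1. Same-numbered libraries of these 2 groups were also alike in holding COL1A2 or not. Where same-numbered libraries of other groups differed in this, r was negative, as for combination 1 and chloroquine 1 (-0.441) or combination 2 and vehicle 2 (-0.433). Where same-numbered libraries were alike in it, r was positive in every pair, at 0.274 to 0.743. For chloroquine 3 and vehicle 3, both with little COL1A2, it was 0.475. Within the combination and 5-FU, where all same-numbered libraries were alike in it, pairing by number and COL1A2 status cannot be told apart. Libraries of different number were not compared, and the labels state no pairing. Promoters came from RefSeq (GRCh38.p14) and transcript lengths from GENCODE 29.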

Additional observations from a re-analysis of the deposited data

Results flagged for a closer look

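The chloroquine effect on 3 members and on 1 related gene differed with and without 5-FU, by the test of the difference itself. For MTHFD1L the interaction was 0.545 on the log2 scale, for ALDH1L2 -0.548 and for MTHFD2 0.239. For the mitochondrial folate carrier SLC25A32 the effect was 0.040 with 5-FU and -0.67 without it, an interaction of 0.709 (edgeR adjusted p = 0.0307), at levels of 2.59 ± 0.18 CPM in the combination, 2.53 ± 0.62 CPM with 5-FU, 2.35 ± 0.19 CPM with chloroquine and 3.73 ± 0.38 CPM in vehicle. It missed the threshold without vehicle 1 or 2, chloroquine 2, 5-FU 3, or combination 1 or 3 (0.55 to 0.69), and in 5 alternatives that kept every library or 1 kind of library (0.54 to 0.75). The MTHFD2 interaction missed it in 4 alternatives (0.099 to 0.26) and those of MTHFD1L and ALDH1L2 in none of 22. No member passed Dixon's test for a distant library among the 4 of vehicle at the 95% level; MTHFD2 came nearest, with a gap of 0.816 of the group's range between vehicle 4 and the next library.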

How the results depend on the processing

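Of 54 member results, 34 kept their direction and their side of the threshold in every alternative run for them, 1242 alternatives in all, and no called member result changed sign. The number of members called was 3 in the combination against 5-FU with only those groups fitted. It also differed from the main fit with chloroquine against vehicle in the 8 libraries with little COL1A2. The same held for the interaction within the 5 libraries with COL1A2, and in both fits some groups had 1 library. Smaller differences occurred in other fits, as where SHMT1 was lost with 5-FU or PSPH was gained in the combination against vehicle. Counts in alternative fits are given to show how stable they were, without the share of all genes in each fit. Leaving out each library gave 3 to 6 members in the combination against 5-FU (3 without combination 1) and 3 to 5 in the interaction (5 without 5-FU 1). Against vehicle it gave 8 to 9 with 5-FU, 8 to 9 in the combination and 4 to 5 with chloroquine. With the replicate block over all libraries 5 members were called in the combination against 5-FU, and 4 with the block in those groups alone. PSPH and ALDH1L2 were the calls lost with the block in those groups alone, and the block changed no other member call. Results that changed sign were uncalled, and the cause was not tested. With library size only these were the interactions of ATF4 (-0.14) and TYMS (-0.072), PHGDH (0.071) and MYC (0.046) with chloroquine, and SLC25A32 in the combination against 5-FU (-0.0037). With the 10 CPM minimum they were the interactions of ATF4 (-0.085) and TYMS (-0.022), and PHGDH (0.028) and MYC (0.0030) with chloroquine. A term for the COL1A2 libraries gave an ATF4 interaction of -0.0243 and PHGDH with chloroquine of 0.064; the 8 libraries alone gave -0.0236 and 0.0066, and a SHMT2 interaction of 0.039. The 5 libraries alone gave an ATF4 interaction of -0.032, PHGDH 0.074 and MTHFD2L 0.051 with chloroquine, MTHFD1 0.0087, MTHFD2L -0.20, PSAT1 -0.038 and SLC25A32 -0.089 in the combination against 5-FU, and interactions of MTHFD2L (-0.25) and PSPH (0.078). The SHMT2 interaction was 0.0078 with RLE, 0.014 with no filter, 0.018 with the replicate block and 0.0077 with DESeq2. Leaving out each library gave interactions of -0.024 to 0.047 for ATF4, -0.13 to 0.017 for PSPH and -0.049 to 0.047 for SHMT2, and -0.13 to 0.22 for SLC25A32 in the combination against 5-FU. Among the members, ALDH1L2 had the fewest counts in a library (183) and PHGDH the most (13306).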
